A study of Mus musculus with 34 samples.

Results

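Hmox1, Nqo1, Gclm, Gclc, Srxn1, Txnrd1, Slc7a11, Gsr, Osgin1 and Prdx1 are 10 antioxidant genes known as targets of the transcription factor NRF2. They were taken by gene name from tables of 55341 gene names counted in each of 34 RNA-seq libraries, and all 10 passed the low-count filter in both library sets. The set was chosen by levels already seen in single libraries of the Y551A-Dim line treated with hormone. Levels and changes of the 10 genes in that line are therefore given as descriptions, without a test. Comparisons that hold no Y551A-Dim library were tested. In the library set that holds that line, these tests still used a spread estimate per gene that included the Y551A-Dim libraries.

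Total RNA was sequenced from mouse mammary adenocarcinoma cells derived from the 3617 line. The glucocorticoid receptor (GR, gene Nr3c1), a hormone-activated transcription factor, was knocked out in every group, and a GFP-tagged mouse GR was stably expressed in its place. The receptor was wild type (WT) or carried a change named D647V, D647V-Tetra, Y551A or Y551A-Dim, 5 forms with a single line for each, so a receptor form and the other properties of its line cannot be told apart. Before treatment the cells spent at least 24 h in medium with 10% charcoal/dextran-stripped serum and 5 µg/ml tetracycline, and they were then treated for 2 h with ethanol (EtOH) or with 100 nM of the synthetic glucocorticoid dexamethasone (Dex). The libraries form 2 sets, told apart by the numbering in their titles. Each treatment of each line had 3 libraries, in set 1 for the Y551A and Y551A-Dim lines with a WT, and in set 2 for the D647V and D647V-Tetra lines, whose own WT had 2. Lines were compared within a set. The labels name 2 batches made with different stranded kits without assigning libraries to them, and they do not say whether replicates were separate cultures, so p-values measure the spread between these libraries, which may be technical.

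NRF2, encoded by Nfe2l2, is kept scarce by KEAP1, which presents it to a CUL3 ubiquitin ligase for degradation. Oxidants and electrophiles modify KEAP1, and the NRF2 that then accumulates pairs with small MAF proteins and binds antioxidant response elements beside its targets, where BACH1 can act as a competing repressor. The targets make glutathione, reduce thioredoxin and peroxiredoxins, and break down haem and quinones. Glucocorticoids are known to interfere with some NRF2 responses in liver cells.

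The promoter windows of 5 of the genes are shown because they carry the letters of the antioxidant response element or of a related form. RefSeq windows on GRCm38.p6 (the mm10 build of the files), 250 bases before to 50 bases after an annotated start, existed for 7 of the 10 genes, in 9 windows, and those of Hmox1, Gclc and Gsr are not shown. Both strands were searched for TGACNNNGC, the core of the element. They were also searched for TGANTCAGC, a related form that holds an AP-1 site and coincides with the core only where N is C. TGACNNNGC occurred in 12.4% of 32851 windows and in those of 4 of these genes, Gclm, Srxn1, Txnrd1 and Prdx1. TGANTCAGC occurred in 1.19% of all windows and in those of 3, Srxn1, Osgin1 and Prdx1. Capitals mark the matches, all on the minus strand of the printed sequence except TGAGTCAGC in Srxn1, and in Prdx1 both motifs fall on the same letters. A match describes letters in a window and not a bound site. The windows are chr3:122245307-122245606 for Gclm, chr2:152105274-152105573 for Srxn1, chr10:82858956-82859255 for Txnrd1 (the 1 of its 3 windows with a match), chr8:119436897-119437196 for Osgin1 and chr4:116685349-116685648 for Prdx1, all on the plus strand.
Gclm: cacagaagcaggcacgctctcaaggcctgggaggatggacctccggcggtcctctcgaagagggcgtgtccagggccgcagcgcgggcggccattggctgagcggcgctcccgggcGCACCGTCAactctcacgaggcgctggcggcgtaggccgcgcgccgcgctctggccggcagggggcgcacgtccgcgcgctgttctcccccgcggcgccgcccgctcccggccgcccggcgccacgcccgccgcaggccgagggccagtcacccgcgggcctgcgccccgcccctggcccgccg
Srxn1: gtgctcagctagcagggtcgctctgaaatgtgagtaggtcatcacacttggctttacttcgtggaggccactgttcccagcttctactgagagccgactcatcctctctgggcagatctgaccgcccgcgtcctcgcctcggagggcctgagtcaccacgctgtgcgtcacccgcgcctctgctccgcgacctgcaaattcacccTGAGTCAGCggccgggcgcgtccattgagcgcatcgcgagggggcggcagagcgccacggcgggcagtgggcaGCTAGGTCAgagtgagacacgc
Txnrd1: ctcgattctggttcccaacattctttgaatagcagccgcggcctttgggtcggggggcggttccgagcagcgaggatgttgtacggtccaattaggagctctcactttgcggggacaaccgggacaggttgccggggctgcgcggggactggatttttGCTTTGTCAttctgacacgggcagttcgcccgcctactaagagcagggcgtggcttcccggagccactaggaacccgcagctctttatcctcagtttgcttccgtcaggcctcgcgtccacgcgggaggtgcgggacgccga
Osgin1: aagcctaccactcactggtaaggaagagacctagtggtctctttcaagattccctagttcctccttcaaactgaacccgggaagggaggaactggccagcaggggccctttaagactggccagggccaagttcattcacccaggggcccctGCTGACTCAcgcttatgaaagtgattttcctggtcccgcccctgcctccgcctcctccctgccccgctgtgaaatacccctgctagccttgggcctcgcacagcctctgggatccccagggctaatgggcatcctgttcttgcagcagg
Prdx1: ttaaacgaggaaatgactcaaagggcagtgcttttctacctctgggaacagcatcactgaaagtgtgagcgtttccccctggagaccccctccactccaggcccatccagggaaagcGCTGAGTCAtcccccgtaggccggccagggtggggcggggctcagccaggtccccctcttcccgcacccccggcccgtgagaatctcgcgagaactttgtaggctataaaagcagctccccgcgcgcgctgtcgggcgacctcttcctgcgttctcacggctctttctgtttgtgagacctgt

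All 10 genes are protein-coding, and reads over any of their annotated exons were counted. On mm10, 4 lie on chromosome 8: Hmox1 (chr8:75093621-75100589), Nqo1 (chr8:107388225-107403206, minus strand), Gsr (chr8:33652523-33698163) and Osgin1 (chr8:119434124-119446256). Gclm (chr3:122245557-122270732) and Slc7a11 (chr3:49892526-50443614, minus strand) lie on chromosome 3, and Gclc on chromosome 9 (chr9:77754535-77794485). Srxn1 is at chr2:152105516-152111376, Txnrd1 at chr10:82833951-82897712 and Prdx1 at chr4:116685544-116700822, and strands not named are plus. Other annotated genes on the same strand overlap the spans of Gclm, Txnrd1, Slc7a11 and Gsr, so their counts are the less certain ones. Levels are given as CPM, counts scaled to a common normalized library size (CPM is the usual abbreviation for this unit), and differences as log2 fold changes with their standard error (SE) from the fit.

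Between 44998213 and 70124595 reads were counted per library in set 1, and between 60277930 and 79776573 in set 2. The 10 genes drew from 137 reads (Osgin1) to 46631 reads (Prdx1) in a library. Group means of Nr3c1, whose count does not separate the transgene from the endogenous gene, ran from 240 ± 8.26 to 377 ± 2.95 CPM (SD, n = 3) over the 12 groups. Against the label of a mammary adenocarcinoma, Epcam had 0 counts in every library and Cdh1 at most 4, and the 6 epithelial markers summed to 0.54 to 1.43 CPM. The 7 basal or mesenchymal markers, led by Vim and Col1a2, summed to 6110 to 8100 CPM, but not all of them were high. Thy1 had at most 2 counts in any library, Krt5 at most 6 and Col1a1 at most 183. The 4 immune markers summed to 2.15 to 9.57 CPM. In bulk RNA, fewer cells of a type and less RNA per cell cannot be told apart.

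Per kilobase of exon, the genes kept a wide spread of levels. In WT cells with EtOH in set 1, Prdx1, a peroxiredoxin that removes peroxides, was the most abundant with 190 ± 7.06 CPM per kb (SD, n = 3). Gsr, which regenerates reduced glutathione, and Srxn1, which repairs oxidised peroxiredoxins, followed with 69.4 ± 2.36 and 69.1 ± 0.551 CPM per kb and did not differ beyond their spread. Nqo1, a quinone reductase, and Txnrd1, thioredoxin reductase, were also alike within their spread, with 45.7 ± 2.27 and 44.9 ± 0.516 CPM per kb. Gclc and Gclm, the catalytic and modifier subunits of the enzyme that starts glutathione synthesis, had 18.6 ± 0.361 and 8.72 ± 0.222 CPM per kb, with Hmox1, which degrades haem, between them at 15.7 ± 0.234. Lowest were Slc7a11, the cystine importer, with 2.34 ± 0.0686 and Osgin1, an oxidative-stress-induced growth inhibitor, with 1.86 ± 0.146 CPM per kb. This order depends on the length taken, that of all annotated exons, which was 13922 bases for Slc7a11 and 1751 for Hmox1. In CPM, Slc7a11 (32.5 ± 0.955) lay above Hmox1 (27.4 ± 0.409) in these libraries. In the WT of set 2 the same 5 genes formed the top, and Osgin1 (2.44 ± 0.355, n = 2) stood above Slc7a11 (1.81 ± 0.147, n = 2), the reverse of set 1.

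The Y551A-Dim line is where the genes stood out, in the first of its 3 Dex libraries. Hmox1 had 312, 86.0 and 38.8 CPM in Dex libraries 1, 2 and 3, against 35.5, 38.9 and 35.4 CPM in the EtOH libraries. Libraries 1 and 2 lay above every EtOH library, while library 3 lay within the EtOH range, so the groups overlapped. Over the EtOH mean, these levels were 8.53-fold, 2.35-fold and 1.06-fold. In the other 11 groups of the series, the libraries of a group differed in Hmox1 by at most 0.42 on the log2 scale.

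For Gclm, Nqo1, Srxn1, Slc7a11 and Gclc, library 1 was also the highest of the 3, while 3 of the 10 genes (Hmox1, Gclm and Slc7a11) had their levels in the order library 1, 2, 3, highest first. Gclm had 106, 68.0 and 63.8 CPM in the 3 Dex libraries against 65.0, 66.6 and 65.8 CPM with EtOH. Nqo1 had 167, 117 and 121 CPM against 116, 119 and 113 CPM. Srxn1 had 316, 247 and 253 CPM against 250, 258 and 248 CPM. In these 3 genes library 1 was high and the other Dex libraries lay close to the EtOH level. Slc7a11 had 31.0, 22.6 and 21.3 CPM against 22.1, 24.3 and 20.1 CPM, and Gclc had 95.8, 82.8 and 86.8 CPM against 83.8, 85.6 and 81.8 CPM. For both, library 1 was again the highest of the 6. In library 1 the fold over the EtOH mean was 1.60 for Gclm, 1.44 for Nqo1, 1.40 for Slc7a11, 1.25 for Srxn1, 1.14 for Gclc and 1.07 for Prdx1. Txnrd1 (1.05-fold), Gsr (0.99-fold) and Osgin1 (0.98-fold) stayed near the EtOH mean.

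**Figure D1:**
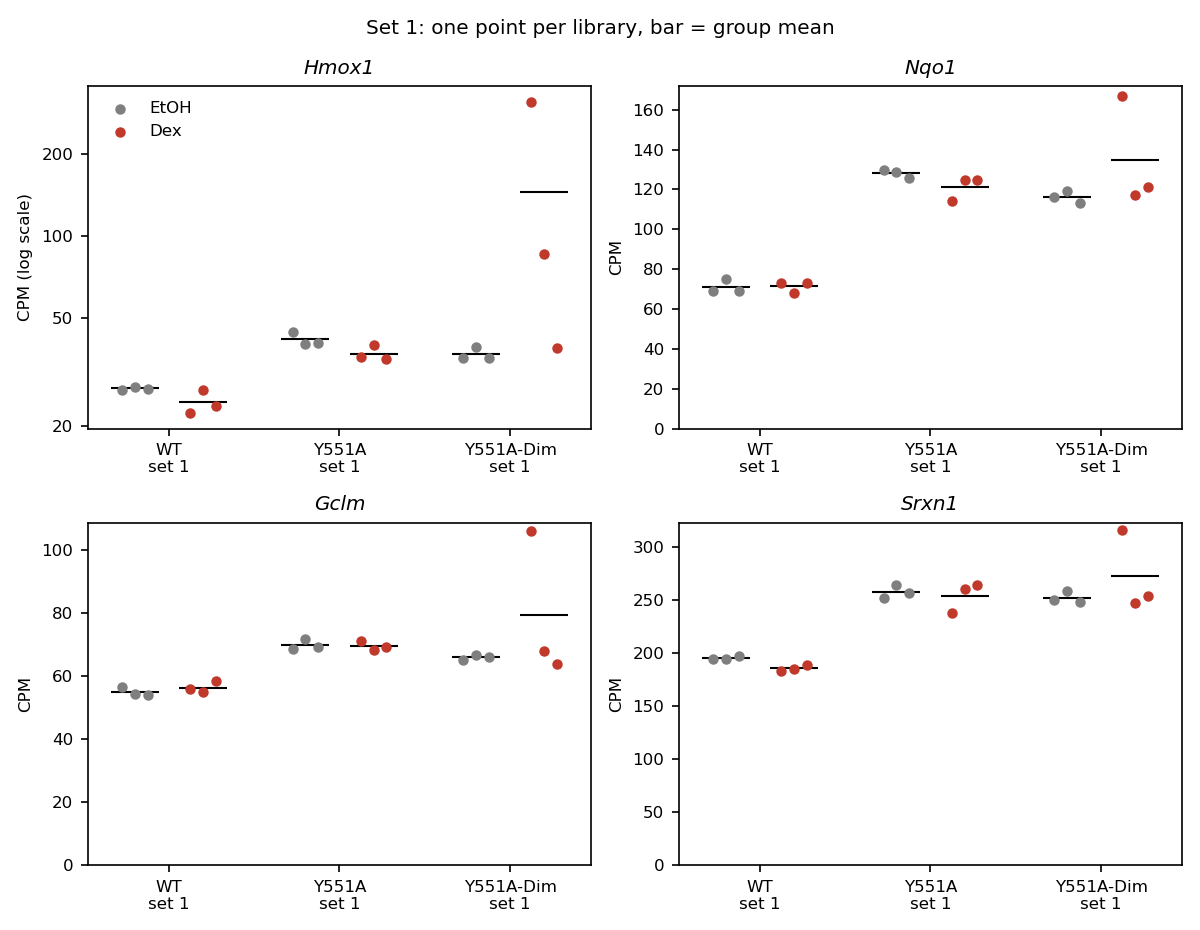
Levels of Hmox1 (log axis), Nqo1, Gclm and Srxn1 in CPM (linear axes from 0) in the 18 libraries of set 1, by line, with EtOH in grey and Dex in red; each point is a library, in the order of replicates 1 to 3, and the bar is the group mean. The first Y551A-Dim Dex library is the highest point of all 4 panels, at 312 CPM for Hmox1.

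Counted over the list, 8 of the 10 genes exceeded all 3 EtOH libraries in Dex library 1, 2 in library 2 and 3 in library 3. Over the 16140 genes tested in set 1 these shares were 29.6%, 24.9% and 25%. The median difference of the list from the EtOH mean was 0.26, -0.02 and 0.01 on the log2 scale, against -0.005, -0.011 and 0.011 over all genes. The highest of the 3 Dex libraries was library 1 for 8 of the 10 genes, and for 33.4% of all genes. Since these values chose the genes, they support nothing further.

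Other lists moved with library 1, and their part in the pattern was not tested. Of 18 further NRF2 targets, 15 exceeded all EtOH libraries in library 1, 5 in library 2 and 6 in library 3. Among them, the aldehyde dehydrogenase Aldh3a1 had 105, 46.9 and 40.7 CPM against 35.9 to 36.8 CPM with EtOH, and the glutathione transferase Gstm1 123, 73.5 and 72.6 CPM against 66.7 to 71.5 CPM. All 10 genes of a hypoxia list exceeded the EtOH libraries in library 1, 7 in library 2 and 6 in library 3, with medians of 0.89, 0.27 and 0.08. The carbonic anhydrase Car9 of that list had 48.4, 15.7 and 7.15 CPM against 5.17 to 6.11 CPM, in the same order over the libraries as Hmox1, and Ndrg1 had 351, 245 and 201 CPM against 180 to 201 CPM. The metallothionein gene Mt1 had 43.5, 24.1 and 24.0 CPM against 22.9 to 24.0 CPM. This gene rises with Dex in the other lines (1.27 ± 0.13 in WT of set 1, adjusted p = 3.63e-08). In library 1, 1 of 8 integrated stress response genes lay above all EtOH libraries and 4 below. Of 10 heat shock genes 3 lay above and 4 below. Of all 16140 genes, 29.6% lay above in this library and 5055 genes lay below. Cd68, a macrophage marker, had 9.43, 3.43 and 2.75 CPM against 2.35 to 2.81 CPM, and the summed level of the 4 immune markers was 9.57 CPM in library 1 and at most 4.39 CPM in every other library of the series. Adgre1 and Cd3e, which define macrophages and T cells, had at most 2 counts in any library, and Ptprc at most 16.

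The genes of the GR check list were compared in the same 3 libraries. Sgk1, a kinase gene, had 206, 192 and 206 CPM in the 3 Dex libraries against 125 to 137 CPM with EtOH, and Tsc22d3, which encodes GILZ, had 48.3, 46.9 and 46.7 CPM against 27.5 to 30.3 CPM. Per1, a clock gene, had 7.92, 9.70 and 8.44 CPM against 3.48 to 4.01 CPM, with library 1 the lowest of the 3. Fkbp5, an HSP90 co-chaperone gene, had 69.9, 77.2 and 80.5 CPM against 74.8 to 82.3 CPM, so that library 1 alone lay below all EtOH libraries. Nr3c1 itself had 357, 353 and 356 CPM. These levels lay 0.20, 0.19 and 0.20 above its EtOH mean on the log2 scale, where the EtOH libraries spanned 0.03. Nfe2l2 had 138, 123 and 131 CPM against 120 to 127 CPM with EtOH. Adm, a gene of the hypoxia list that also rose with Dex in the other lines (0.90 ± 0.08 in WT of set 1, adjusted p = 3.97e-09), lay 1.33, 1.01 and 0.88 above the EtOH mean on the log2 scale, and Mt1 0.89, 0.04 and 0.03. Sgk1, Tsc22d3 and Nr3c1 differed little between the libraries, and Mt1, Adm and Fkbp5 did differ. The part of the hormone response in the level of Hmox1 was not tested.

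**Figure D2:**
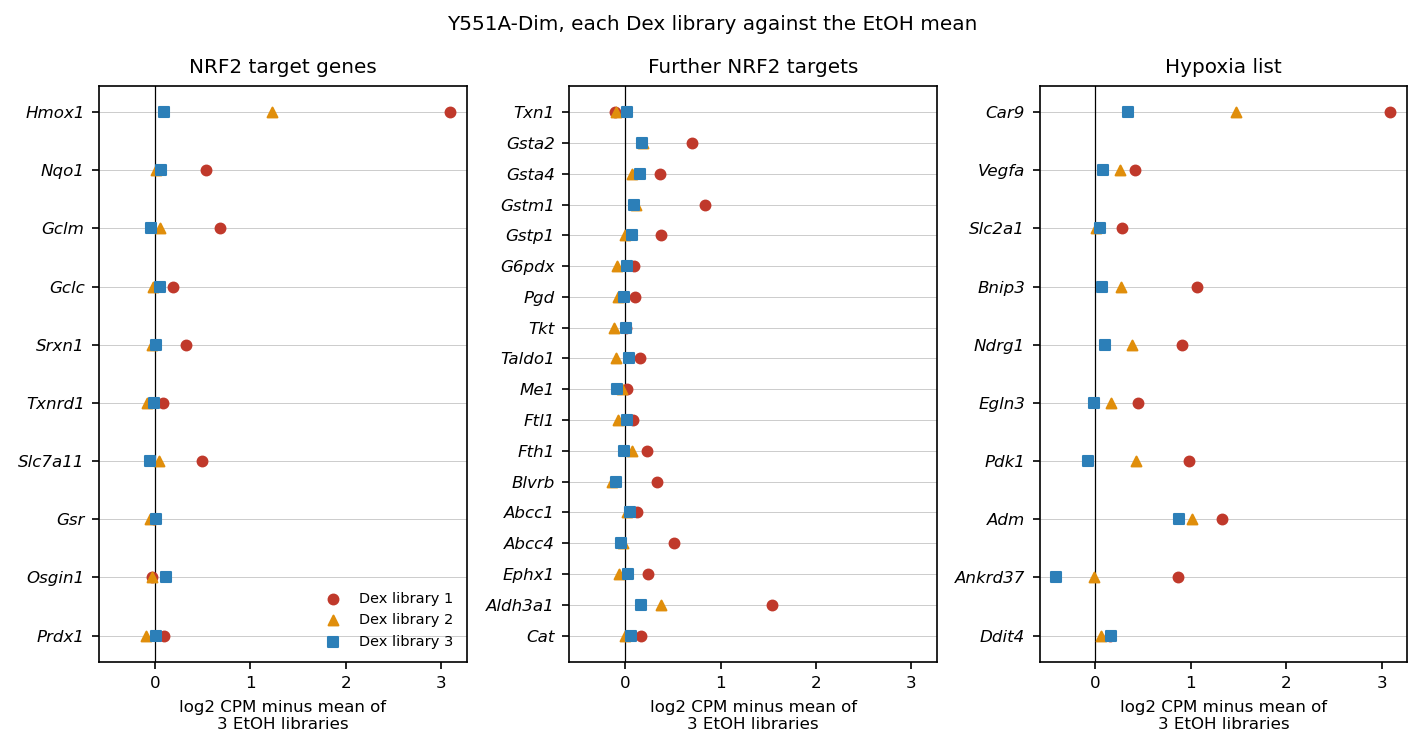
Difference of each Y551A-Dim Dex library from the mean of the 3 EtOH libraries (log2 CPM, horizontal axis) for the 10 genes (left), 18 further NRF2 targets (middle) and 10 hypoxia genes (right); circles, triangles and squares are Dex libraries 1, 2 and 3. Library 1 lies to the right for Hmox1 (3.09), with library 2 at 1.23 and library 3 at 0.09, and Car9 has the same order.

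As a group value, the fitted Dex change of Hmox1 in Y551A-Dim was 1.99 ± 0.37 (SE) on the log2 scale. It was 0.76 without Dex library 1 and 0.08 without Dex libraries 1 and 2. For Gclm the change was 0.26 ± 0.10 and 0.00 without library 1, and for Nqo1 0.22 ± 0.08 and 0.03 without it. Of all genes, 1.09% were called in this comparison, a share from which nothing is read here because the genes were proposed from it. The median change of the list was 0.10, against -0.004 over all genes tested, and in none of the 10 did the Dex and EtOH groups stand apart, as they did for 11.6% of all genes.

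Gclc was the member of the list that rose with Dex in each of the other lines. In WT of set 1 it had 70.4, 70.9 and 68.3 CPM with EtOH and 89.3, 91.1 and 93.7 CPM with Dex. Every Dex library lay above every EtOH library, and the change was 0.39 ± 0.04 on the log2 scale (adjusted p = 4.8e-07, edgeR quasi-likelihood test with Benjamini-Hochberg adjustment over all genes). Y551A had 77.0, 80.7 and 79.7 CPM with EtOH and 92.8, 93.5 and 96.8 CPM with Dex, again without overlap, a change of 0.25 ± 0.04 (adjusted p = 0.000485). In WT of set 2 the levels were 81.8 and 83.7 CPM with EtOH and 109 and 108 CPM with Dex, a change of 0.39 ± 0.06 (adjusted p = 0.000448), the same size as in the WT of set 1.

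The D647V lines showed smaller changes of Gclc from a higher EtOH level. D647V had 93.9, 96.2 and 100 CPM with EtOH and 114, 116 and 113 CPM with Dex, a change of 0.24 ± 0.05 (adjusted p = 0.00925). That call was lost without D647V EtOH replicate 1 (0.0623) or 2 (0.0924) or Dex replicate 2 (0.0532), while the change stayed between 0.22 and 0.27. D647V-Tetra had 106, 94.4 and 97.1 CPM with EtOH and 112, 113 and 107 CPM with Dex, a change of 0.16 ± 0.05 (adjusted p = 0.0216). The lowest Dex library was just above the highest EtOH library, and the call was lost without EtOH replicate 2 (0.066) or 3 (0.0816) or Dex replicate 1 (0.0737) or 2 (0.0562), and also with no low-count filter (0.0613) or with only the 2 groups compared in the fit (0.0761). Y551A-Dim, described without a test, had a change of 0.08 ± 0.04, and its Dex and EtOH libraries overlapped.

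**Figure D3:**
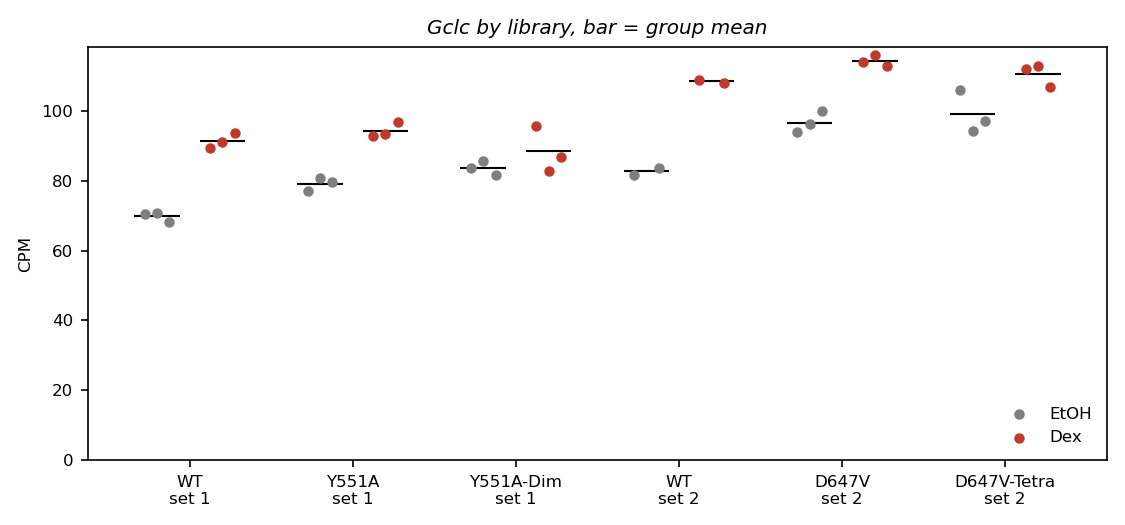
Gclc level (CPM, linear axis from 0) in all 34 libraries, by line and set, with EtOH in grey and Dex in red; each point is a library and the bar is the group mean. Dex libraries lie above EtOH libraries in every line other than Y551A-Dim.

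Whether the Gclc response differed between lines was tested directly. Relative to the WT of the same set it was smaller by 0.13 in Y551A (difference -0.13 ± 0.06, 95% interval -0.26 to -0.00, adjusted p = 0.78), by 0.15 in D647V (-0.15 ± 0.07, -0.30 to 0.01, 0.696) and by 0.22 in D647V-Tetra (-0.22 ± 0.07, -0.38 to -0.07, 0.077). None of the 3 passed, although DESeq2 called the D647V-Tetra difference (adjusted p = 0.0396), as did the fit without D647V-Tetra EtOH replicate 2 (0.0369). The intervals are those of single comparisons, not adjusted over genes.

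The remaining responses in WT and Y551A were few. With Dex, 1 gene rose (Gclc) and 1 fell (Osgin1) of the 10 in WT of set 1, where 3.40% of all genes were called (2.00% higher and 1.40% lower). Osgin1 had 4.52, 5.22 and 5.17 CPM with EtOH and 4.09, 3.41 and 2.77 CPM with Dex there, all Dex libraries below all EtOH libraries. It fell by 0.54 on the log2 scale (SE 0.12, adjusted p = 0.00608), and the call rested on WT Dex replicate 3, without which the change was -0.39 (adjusted p = 0.101). Txnrd1 (-0.10 ± 0.04, adjusted p = 0.228) was not called there, but passed with just the compared groups in the fit (-0.09, adjusted p = 0.0275). In Y551A 1 of 10 rose (Gclc), where 1.84% of all genes were called (1.43% higher and 0.415% lower), and in WT of set 2 1 of 10 rose (Gclc), where 1.72% were called (1.35% higher and 0.376% lower). Osgin1 changed by -0.42 ± 0.19 in WT of set 2 (adjusted p = 0.517), -0.21 ± 0.11 in Y551A (0.606) -0.19 ± 0.15 in D647V (0.888) and -0.29 ± 0.16 in D647V-Tetra (0.21), none of which passed. No difference between the Osgin1 responses of these lines passed either.

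Hmox1 did not pass the test for a Dex response in WT, Y551A or D647V. It had 27.1, 27.9 and 27.4 CPM with EtOH and 22.3, 27.1 and 23.7 CPM with Dex in WT of set 1, where both groups met at 27.1 CPM (-0.17 ± 0.40, adjusted p = 0.95). In Y551A it had 44.4, 40.1 and 40.3 CPM with EtOH and 35.7, 39.8 and 35.1 CPM with Dex, all lower than with EtOH (-0.18 ± 0.38, adjusted p = 0.958). The fit shares 1 estimate of spread per gene within a set, and for Hmox1 the coefficient of variation between replicates was 29.4% in set 1, which holds the Y551A-Dim Dex libraries, and 7.47% in set 2. With the 6 Y551A-Dim libraries left out, an alternative added after seeing the data, the adjusted p was 0.168 in WT and 0.181 in Y551A. In set 2, WT had 36.2 and 38.8 CPM with EtOH and 29.1 and 31.1 CPM with Dex (-0.32 ± 0.11, adjusted p = 0.256), and D647V 47.1, 48.7 and 50.4 CPM and 44.3, 42.6 and 40.7 CPM (-0.20 ± 0.08, adjusted p = 0.636). In both, every Dex library lay below every EtOH library, a difference that did not pass after adjustment over all genes, except in WT when no low-count filter was used (0.00469).

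In D647V-Tetra, 5 of the 10 genes fell with Dex and 1 rose, in a comparison where 19.2% of all genes were called (11.3% higher and 7.89% lower). Hmox1 had 38.5, 50.3 and 51.4 CPM with EtOH and 37.2, 32.8 and 37.1 CPM with Dex, and the groups did not overlap, although EtOH replicate 1 lay close to the Dex libraries. It fell by 0.39 on the log2 scale (SE 0.09, adjusted p = 0.00541), and the call held in all 11 alternatives run, with changes of -0.52 to -0.32. Nqo1 had 85.9, 91.4 and 80.1 CPM with EtOH and 70.0, 75.1 and 65.0 CPM with Dex, and fell by 0.29 (SE 0.08, adjusted p = 0.0182). Gsr fell by 0.19 (SE 0.05, adjusted p = 0.0155), Txnrd1 by 0.13 (SE 0.04, adjusted p = 0.0301) and Prdx1 by 0.19 (SE 0.06, adjusted p = 0.0448), with overlapping groups for Prdx1 alone of the 5. Median change was -0.17 over the list and -0.001 over all genes. In D647V, by comparison, 1 of 10 rose (Gclc), where 0.941% of all genes were called (0.804% higher and 0.137% lower).

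Apart from that of Hmox1, these calls in D647V-Tetra were lost when single libraries were left out. Nqo1 was not called without EtOH replicate 2 (adjusted p = 0.0513) or Dex replicate 1 (0.0579) or 3 (0.101). Gsr was not called without EtOH replicate 3 (0.0568) or Dex replicate 3 (0.0643), and Txnrd1 without EtOH replicate 3 (0.106) or Dex replicate 1 (0.12) or 3 (0.0992). Prdx1 lost its call without EtOH replicate 1 (0.177) or 3 (0.0851) or Dex replicate 1 (0.113) or 3 (0.207). Srxn1 (-0.16 ± 0.06, adjusted p = 0.0854) was called when Dex replicate 2 was left out (0.0403). The count of called genes then ranged from 2 to 6.

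**Figure D4:**
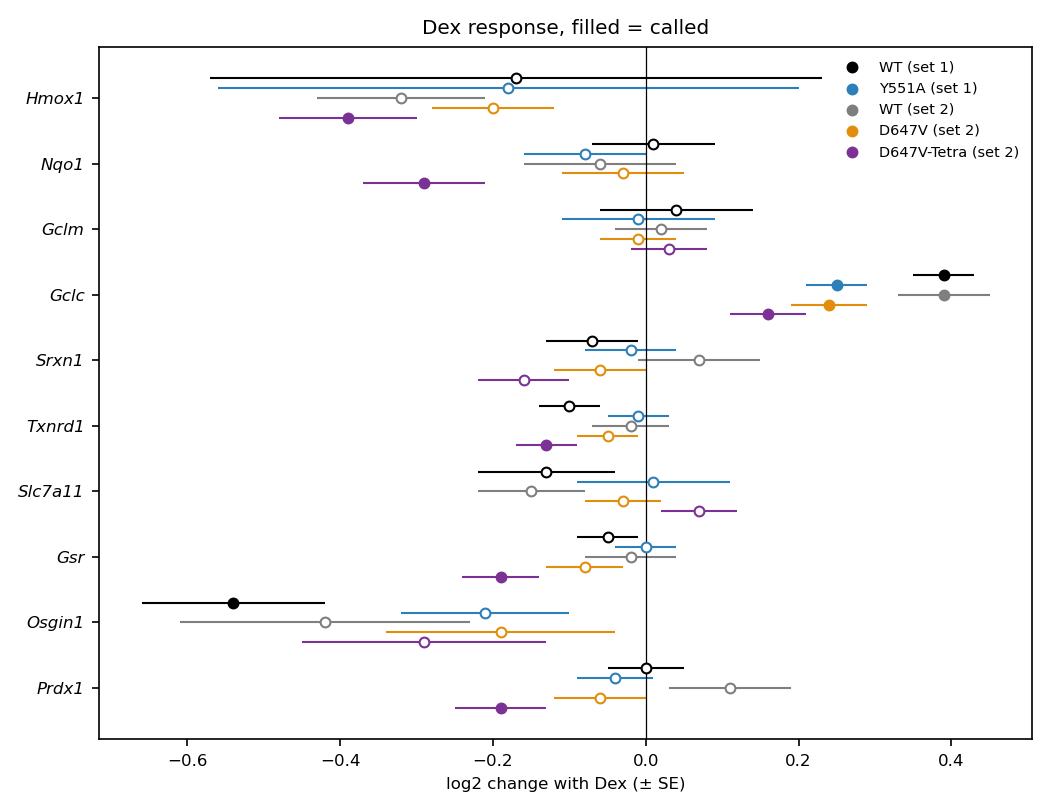
Dex response of the 10 genes (log2 change, horizontal axis, with SE bars) in the 5 line and set combinations that were tested; filled symbols were called at an adjusted p below 0.05 and open symbols were not. Gclc is filled and to the right in all 5, between 0.16 and 0.39, and the filled symbols to the left belong to D647V-Tetra except Osgin1 in WT of set 1.

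No member passed the test for a difference in Dex response between lines. Such differences were called for 0.180% of all genes in Y551A minus WT, 0.188% in D647V minus WT, 4.41% in D647V-Tetra minus WT and 0.873% in D647V-Tetra minus D647V. At an unadjusted p below 0.05, edgeR gave 1, 0, 5 and 1 of the 10 genes in these 4 comparisons, where the share of all genes at that threshold was 6.31%, 6.87%, 26.1% and 13.8%. DESeq2 called 2 in D647V-Tetra minus WT, Gclc and Prdx1, and none in the others. For Hmox1 the difference between D647V-Tetra and WT was -0.07 ± 0.14 (95% interval -0.36 to 0.21), so its fall in D647V-Tetra is not shown to differ from the change in WT.

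Without hormone, the Y551A line differed from WT in most of the list. Of the 10 genes, 7 were higher and 2 lower at an adjusted p below 0.05, where 42.5% of all genes were called (18.9% higher and 23.5% lower), and the EtOH libraries of the 2 lines did not overlap for any of the 10, nor for 54.1% of all genes. Nqo1 had 130, 129 and 126 CPM in Y551A and 68.9, 75.1 and 69.0 CPM in WT, a difference of 0.85 ± 0.08 (adjusted p = 2.12e-09). Osgin1 was higher by 0.69 ± 0.11 (adjusted p = 9.29e-06), Srxn1 by 0.40 ± 0.06 (3e-06) and Gclm by 0.35 ± 0.10 (0.00692). Smaller increases were called for Gclc (0.18 ± 0.04), Prdx1 (0.18 ± 0.05) and Txnrd1 (0.11 ± 0.04).

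Slc7a11 went the other way, with 13.5, 13.1 and 13.1 CPM in Y551A and 32.3, 31.7 and 33.6 CPM in WT. Its difference was -1.30 ± 0.09 (adjusted p = 1.4e-11), and Gsr was also lower (-0.14 ± 0.04, adjusted p = 0.00218). Slc7a11 is also a known target of ATF4. In the integrated stress response list 7 of 8 measured genes were lower in Y551A, as were 23.5% of all genes. Among the 7 were Trib3 (-1.15 ± 0.05), Chac1 (-1.03 ± 0.05) and Atf4 itself (-0.67 ± 0.04). The part of that list in the level of Slc7a11 was not tested. Leaving out WT EtOH replicate 2 ended the call of Gsr (-0.09, adjusted p = 0.0618), and leaving out Y551A EtOH replicate 2 or 3 that of Txnrd1 (0.0502 and 0.078). The median over the 10 genes was 0.26, against -0.001 over all genes.

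Hmox1 was higher in every Y551A EtOH library (40.1 to 44.4 CPM) than in every WT EtOH library (27.1 to 27.9 CPM). Its difference of 0.60 ± 0.38 did not pass in the fit to all of set 1 (adjusted p = 0.222). It passed when the 6 Y551A-Dim libraries were left out (0.63, adjusted p = 4.81e-09) and when the fit held just the libraries of these 2 groups (0.61, 3.69e-13). Over 12 alternatives the difference ran from 0.55 to 0.64, with 3 calls. The third call came with no low-count filter and with the Y551A-Dim libraries kept (0.61, adjusted p = 1.33e-28). The adjusted p of the other 9 alternatives lay between 0.202 and 0.375. Without the Y551A-Dim libraries, 8 of the 10 genes were higher and 2 lower in Y551A.

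The baseline of Y551A-Dim is described without a test. Against WT, 9 of the 10 genes stood apart from the WT libraries, as did 40.6% of all genes, with Nqo1 higher by 0.71 ± 0.08, Osgin1 by 0.47 ± 0.11, Srxn1 by 0.37 ± 0.06 and Gclc by 0.26 ± 0.04. Slc7a11 lay between the other lines, with 22.1, 24.3 and 20.1 CPM, at -0.55 ± 0.09 against WT and 0.74 ± 0.09 against Y551A. Gsr was the gene that overlapped WT (-0.01 ± 0.04). In this comparison 23.3% of all genes were called, and 29.0% in that with Y551A.

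In set 2 the baselines moved less. Against WT, 4 of the 10 genes were higher in D647V and none lower, where 7.36% of all genes were called (4.58% higher and 2.78% lower). Hmox1 had 47.1, 48.7 and 50.4 CPM there and 36.2 and 38.8 CPM in WT (0.38 ± 0.10, adjusted p = 0.0231), and Slc7a11 29.8, 30.5 and 28.8 CPM against 23.8 and 26.7 CPM (0.24 ± 0.06, 0.0201). Neither gene overlapped, nor did Gclc (0.23 ± 0.05, adjusted p = 0.0121) or Gsr (0.21 ± 0.05, 0.0264). With 2 WT libraries these calls rested on single ones, and when 1 WT library is left the fit assumes that it varies like the other groups. Without WT EtOH replicate 1 the count was 0, with adjusted p of 0.219 for Hmox1, 0.303 for Slc7a11, 0.15 for Gclc and 0.265 for Gsr, and it was 2 without WT EtOH replicate 2, 0 without D647V EtOH replicate 2 and 1 without D647V EtOH replicate 3.

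D647V-Tetra had 4 genes higher than WT and 1 lower, where 18.7% of all genes were called (9.35% higher and 9.34% lower). Gclc (0.26 ± 0.05, adjusted p = 0.0019) kept its call in all 10 alternatives. Hmox1 (0.32 ± 0.10, 0.0284), with D647V-Tetra EtOH replicate 1 at 38.5 CPM below the upper WT library, Prdx1 (0.22 ± 0.07, 0.0347), Gsr (0.20 ± 0.05, 0.0177) and Nqo1 (-0.26 ± 0.09, 0.0496) lost theirs in 3 to 6 of 10. Without WT EtOH replicate 1 the count was 1, without WT EtOH replicate 2 it was 3, and without D647V-Tetra EtOH replicate 1 or 3 it was 3 or 1. Nqo1 moved most, to -0.10 without WT EtOH replicate 1. The WT libraries had 113 and 92.4 CPM. Between D647V-Tetra and D647V no gene of the list was called by edgeR or DESeq2, where 4.53% of all genes were called. At an unadjusted p below 0.05 there were 2, beside 21.7% of all genes.

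**Figure D5:**
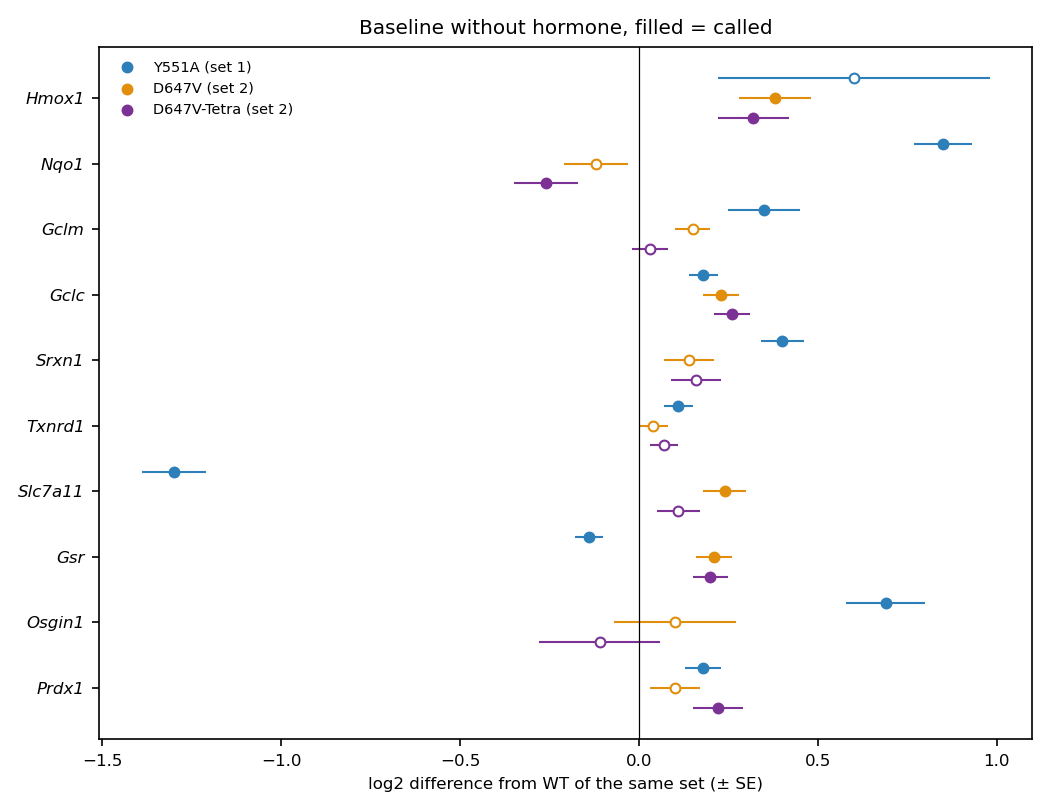
EtOH level of the 10 genes in Y551A, D647V and D647V-Tetra relative to the WT of the same set (log2 difference, horizontal axis, with SE bars); filled symbols were called at an adjusted p below 0.05. Y551A has Slc7a11 at -1.30 and Nqo1 at 0.85, and the set 2 lines lie between -0.26 and 0.38.

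The regulators and other targets of the pathway were counted from lists. In the Y551A baseline, 18.9% of all genes were called higher and 23.5% lower. There, 10 of 18 further targets measured in set 1 were higher than in WT and 2 lower, with a median of 0.24. They included the glutathione transferases Gsta2 (2.06 ± 0.14), which has near-identical copies, and Gsta4 (1.17 ± 0.05), the epoxide hydrolase Ephx1 (0.68 ± 0.05) and catalase, Cat (0.56 ± 0.04). Of the 10 regulators, Mafk (0.26 ± 0.06) and Cul3 (0.16 ± 0.04) were higher and Keap1 (-0.21 ± 0.06, adjusted p = 0.00284) and Nfe2l2 (-0.14 ± 0.04, adjusted p = 0.00633) lower. That share of calls is near the 42.5% of all genes called in this baseline, so it is not read as a result about the regulators. Of 19 further targets measured in set 2, 4 were higher and 1 lower in D647V, where 7.36% of all genes were called. In D647V-Tetra 2 were higher and 1 lower, a share near the 18.7% of all genes called there. Gsta4 was called higher in both lines (0.43 ± 0.07 and 0.39 ± 0.07), and the 1 lower gene was Gstm1 each time (-0.21 ± 0.06 and -0.43 ± 0.06).

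The same lists were counted for the Dex responses. In WT of set 1, 3.40% of all genes were called. There, 1 of 18 further targets rose (Gsta4, 0.20 ± 0.05, adjusted p = 0.0169) and 1 of 10 regulators fell (Nfe2l1, -0.17 ± 0.03, adjusted p = 0.0016). In Y551A, WT of set 2 and D647V edgeR called 0 in both lists, with a lowest adjusted p of 0.204 (Gsta4, 0.22 ± 0.07 in WT of set 2). Of all genes, 1.84%, 1.72% and 0.941% were called there. In D647V-Tetra, where 19.2% of all genes were called, 5 further targets fell and 2 rose of 19. Those with the lowest adjusted p were Taldo1 (-0.19 ± 0.05), Abcc4 (0.22 ± 0.06), Gstp1 (-0.21 ± 0.06) and Txn1 (-0.21 ± 0.06). Of the regulators, Maff, a small MAF gene, fell there (-0.36 ± 0.10, adjusted p = 0.0196). In the differences of response between D647V-Tetra and WT or D647V, edgeR called 0 genes of both lists, with a lowest adjusted p of 0.0589 (Gsta4, -0.31 ± 0.09 against WT). For scale, Sgk1 rose in the same comparisons by 2.42 ± 0.04, 1.90 ± 0.04, 2.65 ± 0.06, 1.76 ± 0.04 and 0.84 ± 0.04 in WT of set 1, Y551A, WT of set 2, D647V and D647V-Tetra.

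The genes whose levels were most like the mean of the 10 were found by correlation of log2 CPM. Over the 18 libraries of set 1 and the 16 of set 2, the 6 with the highest lower r of both sets among 10164 genes were Ccl2, Tshz1, Des, Ftl1, Gpnmb and Creg1, with r of 0.78 or more in each set. On deviations from the group means in set 1, which remove differences between lines and treatments, the 6 were Ero1l (r = 0.99), Aldh3a1 (0.98), Mt1 (0.97), Gbe1 (0.96), Ndrg1 (0.96) and Creg1 (0.96). Such r values are descriptions over libraries that share lines and depth, and in the first Y551A-Dim Dex library Ero1l had 244 CPM against 139 and 123 CPM in the other Dex libraries. The mean of the 10 genes holds the Y551A-Dim values that chose them. It lay 0.60 above its average in the first Y551A-Dim Dex library and at most 0.16 above it in the rest of set 1. In that first library Hmox1 lay 3.09 above its EtOH mean on the log2 scale, while the median over the 10 genes was 0.26. Not all members followed the mean of the 10 genes, which includes each of them. In set 1 their r ran from -0.19 (Slc7a11) to 0.95 (Hmox1), with Gsr at -0.03 and Gclc at 0.30. On deviations from group means it ran from -0.14 (Osgin1) to 0.96 (Gclm).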

How the data were processed

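The deposited files hold raw read counts per gene name, per the file headers, which give featureCounts 2.0.3 with paired reads, reverse-stranded counting (option 2) and GENCODE release M21. Per the submitters' processing notes, the authors used bcl2fastq 2.17, cutadapt and STAR on mm10. Both kits are described as stranded. Spike-in reads (5% Drosophila S2 cells) were not analysed here.

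Counts were fitted per set with edgeR 4.0.16 (R 4.3.3, limma 3.58.1): filterByExpr, TMM scaling, quasi-likelihood test with a mean per group, two-sided p-values with Benjamini-Hochberg adjustment over all genes of a comparison, and calls at an adjusted p below 0.05. Set 1 (18 libraries, 16140 genes) had 12 residual degrees of freedom and a common coefficient of variation between replicates of 5.13%, and set 2 (16 libraries, 17535 genes) had 10 and 8.62%. CPM used the TMM library sizes, and log2 CPM a prior count of 2. The SE of a change is its size divided by the square root of the F statistic. No 2 libraries held identical values. Scripts were tested on simulated data. Of 18 comparisons, 13 hold no Y551A-Dim library and were tested.

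The 10 genes and all gene lists were chosen with earlier results of these data known. All 10 genes are named, with list genes of the lowest adjusted p (at most 4 per list and comparison). For single libraries of Y551A-Dim, list genes were named after their values were seen. Genes alike were the 6 with the highest r by each of 2 measures, at an average log2 CPM of at least 1. Alternatives were DESeq2 1.42.0, RLE scaling, no filter, a fit to the compared groups, a replicate block and leaving out each library.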

Additional observations from a re-analysis of the deposited data

How the results depend on the processing

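In the tested comparisons, no value called in the full fit or in an alternative reversed its sign. For each gene in each comparison, 2220 values under the alternatives counted as unchanged, 67 lost a call and 14 gained one. Unchanged meant the same side of the threshold, with direction checked only for called values. For Y551A-Dim comparisons it meant a move of less than 1 SD between replicates, and 29 values there moved by at least that. Counts of the 10 genes called with Dex: D647V-Tetra 3 with just the compared groups in the fit (6 in the full fit), WT of set 2 2 with no filter. D647V-Tetra minus WT gave 2 by DESeq2 and 1 with no filter, and D647V-Tetra minus D647V 1 with no filter. Baselines against WT gave 2 for D647V and 1 for D647V-Tetra with just the compared groups. Leaving out 1 library gave Dex counts of 1 to 2 (WT of set 1), 1 to 1 (Y551A, WT of set 2), 0 to 1 (D647V) and 2 to 6 (D647V-Tetra). Baseline counts were 8 to 9 (Y551A), 0 to 4 (D647V), 1 to 4 (D647V-Tetra) and 0 to 0 (D647V-Tetra against D647V), and differences of response 0 to 2 (D647V-Tetra minus WT) and 0 to 0 elsewhere. WT of set 1 had 1 without Dex replicate 3. D647V-Tetra minus WT had 2 without EtOH replicate 2 and 1 without Dex replicate 2 of D647V-Tetra. The Dex count of D647V-Tetra was 2 without its EtOH replicate 3 or Dex replicate 1 or 3. The causes were not tested.

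The labels do not say whether replicate numbers pair the libraries, and the values did not settle it. Same-numbered libraries correlated in their deviations from group means with a median of -0.02 in set 1 (-0.26 to 0.31). In set 2 the median was -0.20 (-0.69 to 0.64). Between libraries of other numbers the medians were 0.01 and 0.12. With the replicate block, 2 (D647V) and 3 (D647V-Tetra) baseline calls against WT were left, and the fall of Prdx1 with Dex in D647V-Tetra lost its call (-0.19, adjusted p = 0.0664). Over all genes, the block gave 431 in place of 774 calls for D647V-Tetra minus WT, 82 in place of 153 for D647V-Tetra minus D647V and 502 in place of 795 for their baselines.

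Leaving out 1 library gave all-gene counts of 75 to 1643 for D647V-Tetra minus WT, 1344 to 4023 for Dex in D647V-Tetra, 49 to 271 for D647V-Tetra minus D647V, 188 to 1131 for their baselines, and 364 to 1057 and 1498 to 3598 for the baselines of D647V and D647V-Tetra against WT. It gave 17 to 32 for Y551A minus WT, 87 to 674 for Dex in Y551A-Dim, 195 to 227 for Dex in WT of set 2 and 19 to 35 for D647V minus WT.

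Over all genes, other counts beyond 1.5 times the main one were as follows. DESeq2 gave 54 in place of 29 (Y551A minus WT), 62 in place of 33 (D647V minus WT), 1755 (D647V-Tetra minus WT), 465 (D647V-Tetra minus D647V), 1403 (their baselines) and 311 in place of 176 (Dex in Y551A-Dim). No filter gave 109, 244, 2424, 936, 1956 and 491 for these, with 583 in place of 302 (Dex in WT of set 2) and 380 in place of 165 (Dex in D647V). Just the compared groups gave 864 in place of 549 (Dex in WT of set 1), 46 (Dex in Y551A-Dim), 70 (Y551A minus WT), 457 (D647V-Tetra minus WT), 235 (baselines of D647V-Tetra and D647V), 761 in place of 1290 and 1876 in place of 3277 (baselines of D647V and D647V-Tetra against WT).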
